A study of Mus musculus with 6 samples.

Results

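The 51 genes described here encode the proteins that mark, open and copy replication origins in mouse cells. They were chosen by name, from a list that covers origin licensing, the replicative helicase, the polymerases, the sliding clamp and its loader, and nucleotide supply, and each name matched 1 of the 55401 gene rows of the count table. The RNA came from 129/Ola mouse embryonic stem cells whose zinc finger protein ZFP207 is fused, per titles and treatment protocol, to an auxin-inducible degron (ZFP207AID), a tag through which the plant hormone IAA sends the protein to the proteasome. Control libraries (n = 3) were labelled AID 0h with the genotype WT, and depleted libraries (n = 3) were labelled AID 5h, with IAA for 5 h and a genotype naming the degradation of ZFP207. Controls were read as ZFP207AID cells before IAA. Should they be untagged, line and treatment would differ at once. All 6 libraries came from cells grown with serum and leukemia inhibitory factor, and RNA labelled with 4-thiouridine (4sU), a uridine analogue taken up into RNA while it is made, was bound to beads and sequenced. The length of the labelling, the number of clones behind the line and cells with IAA but no degron were not given in the sources used here. Effects of IAA itself and of losing ZFP207 cannot be told apart.

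Replication starts where the origin recognition complex (ORC) sits on DNA. In late mitosis and G1, ORC, CDC6 and CDT1 load the MCM2-7 ring in an inactive form, a step known as licensing. In S phase the kinase CDC7 with DBF4, together with cyclin-dependent kinases, turns loaded MCM2-7 into the active helicase by adding CDC45 and the GINS complex, and geminin holds CDT1 back so that no origin is licensed again. Behind the helicase, polymerase alpha and primase lay down primers, the loader RFC places the PCNA clamp, and polymerases delta and epsilon extend. Many of these genes are textbook targets of E2F transcription factors, and mouse embryonic stem cells, which spend much of their cycle in S phase, express them strongly.

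All 51 genes passed the filter on low counts, with between 121 counts (Rpa3) and 11523 counts (Mcm5) in any library. Libraries held 14336811 to 25916628 counts. Summed over the 51 genes, the level came to 7285, 6823 and 7303 CPM (counts scaled to library size, with TMM, the trimmed mean of M values) in control replicates 1 to 3, against 7175, 7246 and 7461 CPM in depleted replicates 1 to 3. The groups overlapped, and the difference between their means, 157 CPM, was smaller than the SD of the controls, 272 CPM. All 12 stem cell markers fixed for the check of cell identity were expressed, at 104 CPM or more in each library, and summed to 5364 to 6188 CPM in controls and 5698 to 6568 CPM in depleted libraries. Fibroblast markers, which would show feeder cells, summed to 6.24 to 10.9 CPM in controls and 2.99 to 5.96 CPM in depleted libraries, and Col3a1, Dcn, Lum and Postn were at 0 in all 6. Markers of primitive endoderm summed to 109 to 177 and 113 to 188 CPM, mostly from Lama1, those of primed epiblast and early germ layers to 19.1 to 27.5 and 18.3 to 31.3 CPM with T at 0, and those of 2-cell-like cells to 0.285 to 27.4 and 0.958 to 27.8 CPM. The part of these cells in the results was not tested. RNA of Zfp207 itself stood at 545, 1116 and 548 CPM in controls and 695, 1467 and 596 CPM in depleted libraries (log2 fold change 0.32, unpaired edgeR adjusted p = 0.823; paired 0.29, edgeR adjusted p = 0.0196), which does not check a degron that acts on the protein.

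The replication genes did not all move one way. In the fit that pairs libraries by replicate number, 4 ORC genes, 2 clamp loader genes, Pola2, Wdhd1 and Tipin fell after IAA, while Cdt1, Mcm2, Mcm5, Cdc45, Gins2 and Pcna rose. The largest difference was that of Orc3, 1.75-fold paired and 1.72-fold unpaired. EdgeR without the pairing, the fit set as the main one, made no call among the 51 genes, and the paired fit was an alternative to it. Values are log2 fold changes (log2FC) of depleted over control, from edgeR's quasi-likelihood test over all 17573 genes tested, with p-values adjusted by Benjamini-Hochberg over all of them and called under 0.05. Without a replicate block (the unpaired fit), 0 of the 51 were called, against 0.780% of all genes called lower, 0.0114% called higher and 0.791% in either direction, and 7 had an unadjusted p under 0.05 (10.9% of all genes). DESeq2 without the block called Orc5 and Rfc1 lower, where it called 3.29% of all genes lower. With the replicate number as a block (the paired fit), 9 of the 51 genes (17.6%) fell and 6 (11.8%) rose, against 7.90% and 4.96% of all genes tested. Together that is 15 of 51 (29.4%, against 12.9% of all genes), and 26 of the 51 had an unadjusted p under 0.05 in that fit (27.9% of all genes). The unpaired edgeR adjusted p of the 15 lay between 0.0946 and 0.661. The shares of all genes include weakly expressed ones, and genes of like level were not set apart. They also pool genes of all lengths, and shares by length are given below. In bulk RNA, fewer cells in a cycle phase and less labelled RNA per cell cannot be told apart. Levels here are those of 4sU-labelled RNA and not of total RNA.

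**Figure D1:**
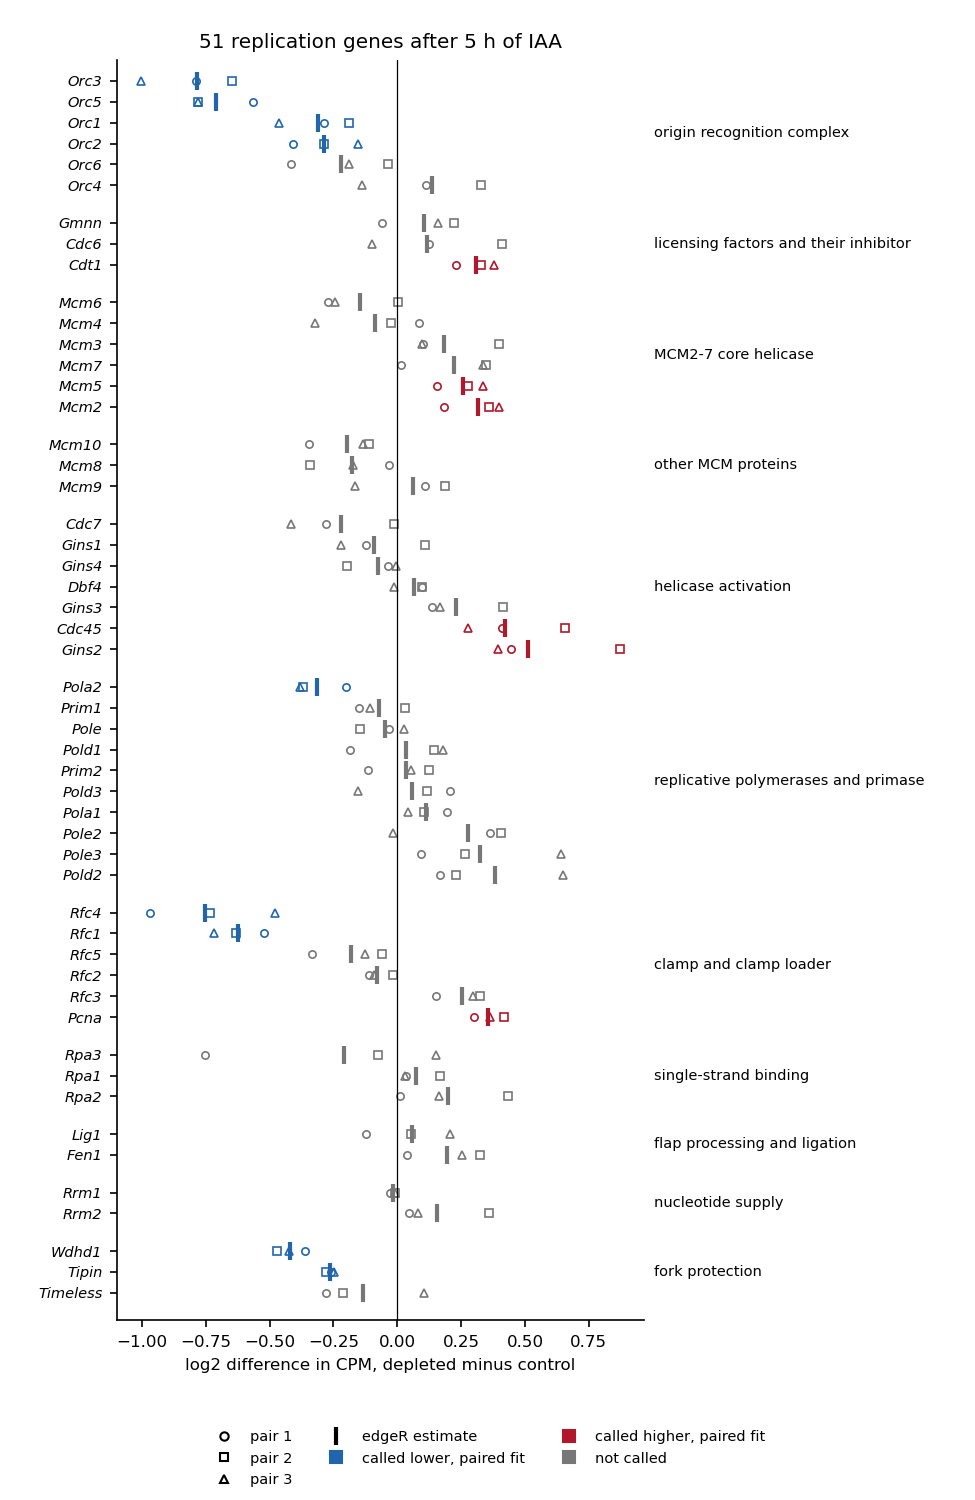
Difference in log2 CPM (depleted minus control) for each of the 51 replication genes, grouped by role; circles, squares and triangles are pairs 1, 2 and 3 and the bar is the estimate of the unpaired edgeR fit. Blue genes (9) were called lower and red genes (6) higher in the paired fit, and grey genes (36) were not called.

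The 51 genes had a median log2FC of 0.03, and all genes tested had 0.02. A value above 0 was found for 27 of the 51 (52.9%) and for 52.3% of all genes. In 17 genes all 3 pairs lay higher and in 17 all 3 lay lower (33.3% each), against 24.2% and 24.1% of all genes tested. In 10 genes (19.6%) the depleted libraries all lay below the controls and in 5 (9.8%) all above, against 11.8% and 6.94% of all genes tested. The paired fit rests on few pairs, and when pair 1, 2 or 3 was left out it called 4, 6 and 6 of the genes lower and 4, 2 and 1 higher. Orc3, Orc5, Rfc1, Wdhd1 and Pcna were called whichever pair was left out. Leaving out 1 library from the unpaired fit moved several log2FCs by over 1.5 times. Without control replicate 2, Gins2 went from 0.51 to 0.21, Cdc45 from 0.42 to 0.25, Pcna from 0.35 to 0.21 and Cdt1 from 0.31 to 0.16.

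ORC is the complex that marks origins, and 4 of its 6 subunit genes fell in the paired fit. Values are given in order of replicate number. Orc3 stood at 93.9, 135 and 95.4 CPM in controls and at 54.3, 86.1 and 47.5 CPM after IAA. Its log2FC was -0.78 (SE 0.25, edgeR adjusted p = 0.261) unpaired and -0.81 (SE 0.10, edgeR adjusted p = 2.30e-04) paired, the largest fall among the 51 genes. Every depleted library lay below every control, and both groups were highest in replicate 2. Orc5, which encodes an ATP-binding subunit, stood at 141, 167 and 130.1 CPM in controls and 95.4, 97.4 and 75.6 CPM after IAA. It had a paired log2FC of -0.71 (SE 0.09, edgeR adjusted p = 2.41e-04), and the groups did not overlap. Unpaired, its edgeR adjusted p was 0.108.

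Orc1 encodes the ATPase subunit whose level cycles in many mammalian cells. Its level was 175, 182 and 190.2 CPM in controls and 144, 159.7 and 138 CPM in depleted libraries (paired log2FC -0.31, SE 0.08, edgeR adjusted p = 0.0257). Orc2, a core subunit, went from 202, 204 and 179 CPM to 152, 167 and 161 CPM (paired log2FC -0.28, SE 0.08, edgeR adjusted p = 0.0349). Neither gene overlapped between groups, but each was called in the paired fit with only 1 of the 3 pairs left out, with edgeR adjusted p from 0.0252 to 0.143 for Orc1 and from 0.0451 to 0.229 for Orc2. Orc6, whose product joins the ring last, also had all depleted libraries (81.6, 88.4 and 78.5 CPM) below the controls (109, 90.7 and 89.6 CPM), and was not called (paired log2FC -0.22, edgeR adjusted p = 0.170; unpaired -0.22, and -0.12 without control replicate 1). Orc4, the remaining ATP-binding subunit, was the exception in sign. It stood at 119, 149 and 111 CPM in controls and 129, 187 and 101 CPM after IAA, higher in 2 of 3 pairs and not called (paired log2FC 0.10, SE 0.09). In GRCm38.p6, the assembly of mm10, Orc3 lies on chromosome 4 from 34566781 to 34614963, Orc5 on chromosome 5 from 22486480 to 22550338, Orc1 on chromosome 4 from 108575705 to 108616030 and Orc2 on chromosome 1 from 58462771 to 58505113. The interval of Orc3 touches those of Akirin2 and Rars2, and Rars2 fell too (paired log2FC -1.25, edgeR adjusted p = 2.35e-04) while Akirin2 was not called (0.18). Strand use is not stated, so reads where such genes overlap cannot be told apart.

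To show the DNA in front of genes that moved in opposite directions, the 250 bases before the annotated start were read from RefSeq (GRCm38.p6), which held a window for 42 of the 51 genes. The start used there can lie inside the interval of the gene, as for Orc1. The letters searched, on both strands, were the E2F sites TTTCCCGC, TTTGGCGC, TTTCGCGC and TTTGCCGC and the CCAAT box, the site of the factor NF-Y. An E2F match was present for 9 of the 42 genes (21.4%) and for 2.16% of all 27025 genes with a window (1.86% of 32851 windows), and CCAAT was present for 25 of the 42 (59.5%) and for 37.5% of all genes with a window (33.8% of windows). Among genes called in the paired fit, E2F letters stood before Orc1 and Orc3, which fell, and Mcm5, which rose, which is 2 of 8 lower genes and 1 of 5 higher genes with a window. CCAAT stood before 3 of 8 lower genes, 4 of 5 higher genes and 18 of 29 genes that were not called. The other genes with E2F letters, Cdc6, Gins3, Mcm6, Mcm7, Pola1 and Rfc3, were not called. The windows below are read 5′ to 3′ on the gene's strand, with E2F and CCAAT letters in capitals (ATTGG is CCAAT on the other strand), at chr4:108579204-108579453 (plus) for Orc1, chr4:34614943-34615192 (minus) for Orc3 and chr8:75109259-75109508 (plus) for Mcm5.
Orc1: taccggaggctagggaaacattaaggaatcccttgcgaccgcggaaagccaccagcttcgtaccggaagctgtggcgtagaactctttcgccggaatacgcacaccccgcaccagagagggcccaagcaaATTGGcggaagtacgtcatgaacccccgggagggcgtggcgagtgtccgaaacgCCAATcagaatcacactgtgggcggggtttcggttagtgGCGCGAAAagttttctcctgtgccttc
Orc3: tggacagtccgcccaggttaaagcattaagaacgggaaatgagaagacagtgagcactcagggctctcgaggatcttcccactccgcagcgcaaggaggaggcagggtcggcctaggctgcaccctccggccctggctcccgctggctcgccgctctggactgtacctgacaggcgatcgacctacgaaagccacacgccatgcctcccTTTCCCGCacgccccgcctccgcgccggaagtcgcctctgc
Mcm5: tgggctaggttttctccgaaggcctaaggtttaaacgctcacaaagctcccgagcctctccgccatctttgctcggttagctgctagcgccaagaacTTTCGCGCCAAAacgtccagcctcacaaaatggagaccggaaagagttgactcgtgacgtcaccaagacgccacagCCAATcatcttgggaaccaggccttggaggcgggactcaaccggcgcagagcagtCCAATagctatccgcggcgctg
The E2F letters begin 27 bases before the start in Orc1 and 41 in Orc3. In Mcm5 a pair of overlapping matches, to TTTCGCGC and to the reverse complement of TTTGGCGC, begins 153 and 149 bases before the start. Orc1 and Mcm5 carry 2 CCAAT boxes each and Orc3 none in this window. A match of letters is not a test of binding.

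Of the licensing factors that work with ORC, Cdt1 rose in the paired fit. Cdt1, the MCM loading factor (chromosome 8, 122568015 to 122573130), stood at 292, 195 and 256 CPM in controls and 342, 245 and 332 CPM after IAA. The groups overlapped because replicate 2 was lowest in both, and the depleted library was higher in all 3 pairs (paired log2FC 0.31, SE 0.07, edgeR adjusted p = 0.0134; unpaired edgeR adjusted p = 0.628). The call was lost without pair 3 (edgeR adjusted p = 0.101). Cdc6, the ATPase that joins ORC to load MCM2-7, had 125, 88.3 and 148 CPM in controls and 136, 117 and 138 CPM in depleted libraries, and was not called (paired log2FC 0.14, SE 0.10). Gmnn, which encodes geminin, the inhibitor of CDT1, was not called either, at 43.7, 37.1 and 44.0 CPM and 42.0, 43.3 and 49.1 CPM (paired log2FC 0.11, SE 0.12).

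Within the MCM2-7 ring, 2 of 6 genes rose in the paired fit and 0 fell. Mcm2 (chromosome 6, 88883474 to 88898780) stood at 369.9, 395 and 358 CPM in controls and 419.6, 507 and 471 CPM after IAA, with no overlap (paired log2FC 0.31, SE 0.07, edgeR adjusted p = 0.0134). Mcm5 (chromosome 8, 75109468 to 75128439) went from 439, 373 and 412 CPM to 489, 452 and 519.8 CPM, also without overlap (paired log2FC 0.26, SE 0.07, edgeR adjusted p = 0.0300). Mcm2 and Mcm5 sit next to each other in the ring, at the gate through which DNA enters. The rise was small, and leaving out single pairs gave edgeR adjusted p between 0.0189 and 0.107 for Mcm2 and between 0.0531 and 0.188 for Mcm5. Mcm3 and Mcm7 were higher in 3 of 3 pairs without a call (paired log2FCs 0.20 and 0.23, edgeR adjusted p = 0.125 and 0.0792). Mcm7 was called higher by DESeq2 with the block and by the paired edgeR fit without pair 1. Mcm4 and Mcm6 had paired log2FCs of -0.09 and -0.17 and were not called.

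Mcm6 varied by replicate number more than by group. Controls held 101, 198 and 215 CPM, and depleted libraries 83.8, 198 and 182 CPM. Replicate 1 was thus low in both groups, and the standard error of its log2FC was 0.35 unpaired and 0.08 paired. The median standard error over the 51 genes was 0.16 unpaired and 0.09 paired.

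Outside the ring, no gene of the other MCM proteins was called. Mcm10, whose product helps start the helicase, was lower in 3 of 3 pairs, at 258, 232 and 265 CPM and 203, 214 and 242 CPM (paired log2FC -0.20, SE 0.08, edgeR adjusted p = 0.115). Mcm8 and Mcm9, a helicase pair used in recombination, had paired log2FCs of -0.18 and 0.05.

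**Figure D2:**
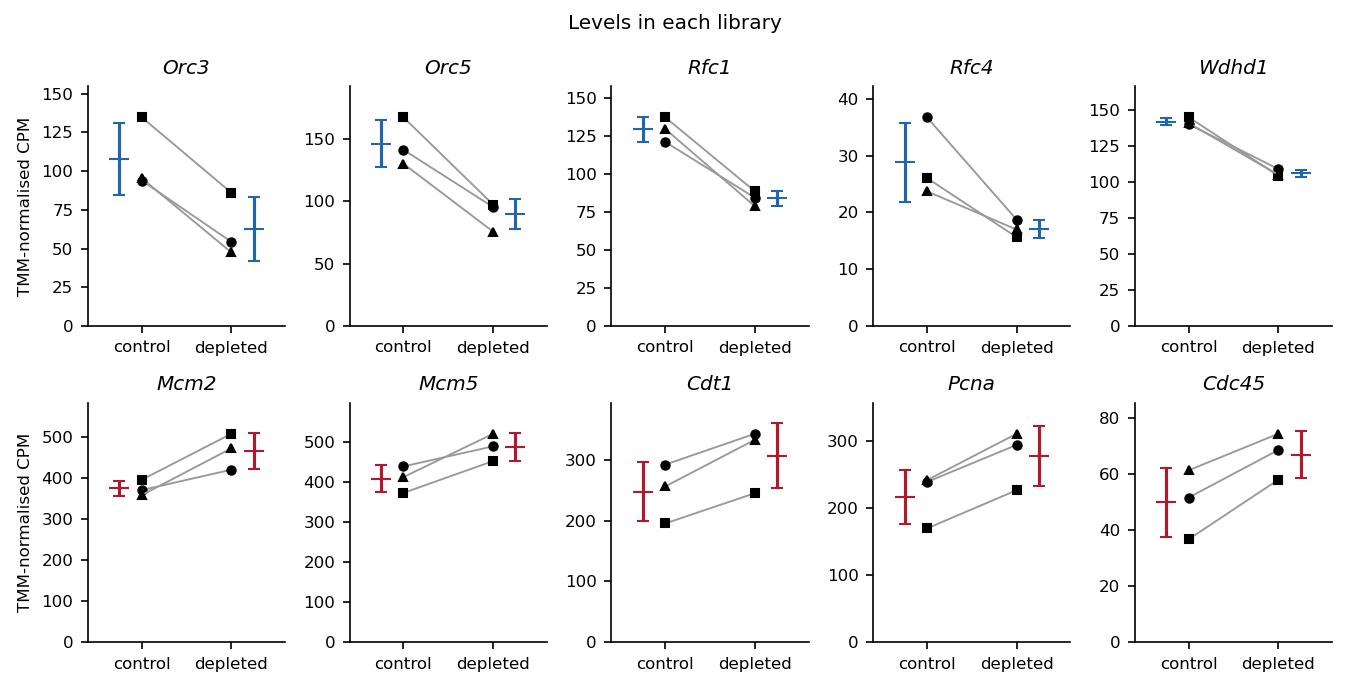
TMM-normalised CPM of 10 replication genes called in the paired fit, in each control and depleted library; lines join libraries with the same replicate number (circles, squares and triangles for 1, 2 and 3) and coloured bars are mean ± SD (n = 3). Orc3, Orc5, Rfc1, Rfc4 and Wdhd1 lie lower in all 3 depleted libraries than in any control, Mcm2 and Mcm5 lie higher in all 3, and Cdt1, Pcna and Cdc45 rise in each pair while the groups overlap.

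Of 7 genes for factors that activate the loaded ring, 2 rose in the paired fit and 0 fell. Cdc45 (chromosome 16, 18780447 to 18811972), the helicase cofactor, went from 51.6, 36.7 and 61.3 CPM to 68.5, 57.9 and 74.3 CPM, higher in each pair (paired log2FC 0.45, SE 0.11, edgeR adjusted p = 0.0183). Gins2 (chromosome 8, 120581266 to 120589075), a GINS subunit, went from 32.0, 13.4 and 30.5 CPM to 43.6, 24.6 and 40.1 CPM, the largest rise of the 51 genes (paired log2FC 0.56, SE 0.14, edgeR adjusted p = 0.0226). In both genes replicate 2 was lowest in each group and rose most. With any 1 pair left out neither was called, with edgeR adjusted p of 0.0529 to 0.0945 for Cdc45 and 0.0568 to 0.103 for Gins2. Their intervals overlap those of Ufd1 and Gse1, which had paired log2FCs of 0.05 and 0.02 and were not called.

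The other GINS subunits were not called. Gins3 lay higher in every depleted library (60.8, 60.8 and 64.0 CPM) than in any control (55.3, 45.6 and 57.0 CPM), with a paired log2FC of 0.24 (edgeR adjusted p = 0.167). Unpaired it was 0.23, and 0.14 without control replicate 2. Gins1 and Gins4 had paired log2FCs of -0.08 each. Of the kinase that triggers firing, the catalytic subunit gene Cdc7 was lower in 3 of 3 pairs (93.9, 111 and 109 CPM in controls, 77.3, 110.5 and 82.1 CPM after IAA) and its activator gene Dbf4 changed sign between pairs. Neither was called, with paired log2FCs of -0.23 (edgeR adjusted p = 0.135) and 0.06.

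Of 10 genes for polymerases and primase, only Pola2 was called in the paired fit. Pola2, the accessory subunit of polymerase alpha (chromosome 19, 5940543 to 5964238), fell from 124, 116 and 118 CPM to 108, 89.8 and 90.5 CPM, with no overlap between groups (paired log2FC -0.32, SE 0.09, edgeR adjusted p = 0.0295). Its call was lost whichever pair was left out (edgeR adjusted p = 0.0614 to 0.144). The catalytic subunit of the same polymerase, Pola1, was higher in 3 of 3 pairs, at 222, 259.5 and 242 CPM in controls and 255, 279 and 249 CPM after IAA, and was not called (paired log2FC 0.11, SE 0.07). The primase genes Prim1 and Prim2 had paired log2FCs of -0.08 and 0.02. For polymerase delta, Pold1, Pold2 and Pold3 stood at 0.04, 0.35 and 0.06, and for polymerase epsilon, Pole, Pole2 and Pole3 stood at -0.05, 0.26 and 0.33 on the same scale. Pold2 was the third highest of the 51 genes in unpaired log2FC (0.38, SE 0.33), with 24.0, 13.8 and 23.9 CPM in controls and 26.9, 16.2 and 37.5 CPM after IAA. The groups overlapped, and leaving out depleted replicate 3 gave 0.07, control replicate 2 gave 0.16 and depleted replicate 2 gave 0.65.

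The clamp gene and 2 of the 5 loader genes were called in opposite directions. Pcna, the gene of the ring that tethers polymerases (chromosome 2, 132249286 to 132253180), stood at 239, 169.8 and 242 CPM in controls and 294, 227 and 311 CPM in depleted libraries. It rose in the paired fit (log2FC 0.36, SE 0.07, edgeR adjusted p = 0.00631), and remained called without any 1 pair (edgeR adjusted p = 0.0249 to 0.0467). Replicate 2 was again lowest in both groups, so that the groups overlapped. Its 250 bases before the start (chr2:132253181-132253430, minus strand, GRCm38.p6) are given beside those above because this was the called rise that survived each omission, and they hold no E2F letters of the set searched and 1 CCAAT box, in capitals, 87 bases before the start.
Pcna: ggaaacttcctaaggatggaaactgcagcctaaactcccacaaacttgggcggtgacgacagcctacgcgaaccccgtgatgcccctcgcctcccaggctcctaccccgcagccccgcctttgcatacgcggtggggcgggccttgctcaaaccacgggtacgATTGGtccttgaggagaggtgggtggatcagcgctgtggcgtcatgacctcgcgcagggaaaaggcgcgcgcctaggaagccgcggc
Rfc1, the large subunit of the loader (chromosome 5, 65261852 to 65338617), fell from 121, 137 and 129 CPM to 84.3, 88.5 and 78.7 CPM. Its paired log2FC was -0.62 (SE 0.09, edgeR adjusted p = 6.04e-04), and at an unpaired edgeR adjusted p of 0.0946 it came nearest to a call in that fit. Rfc4, a small subunit (chromosome 16, 23113948 to 23127730), fell from 36.8, 26.1 and 23.7 CPM to 18.7, 15.7 and 17.0 CPM (paired log2FC -0.73, SE 0.16, edgeR adjusted p = 0.00941). Neither gene overlapped between groups, and Rfc4 was not called without pair 1 (edgeR adjusted p = 0.0848). The interval of Rfc4 meets that of Eif4a2, a translation initiation helicase gene at 1262 CPM in controls and 1493 CPM after IAA, which was not called (paired log2FC 0.24). The other subunit genes, Rfc2, Rfc3 and Rfc5, had paired log2FCs of -0.07, 0.26 and -0.17 and were not called, and Rfc3, like Pcna, was higher in 3 of 3 pairs.

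Genes that protect and finish the copied strands showed no call. The single-strand binding genes Rpa1, Rpa2 and Rpa3 had paired log2FCs of 0.08, 0.20 and -0.23. Rpa2 lay higher in every depleted library (139, 149.6 and 147 CPM) than in any control (138, 111 and 132 CPM). Rpa3 rested on the fewest counts and had the widest standard error of the 51 genes in the paired fit (0.24). The flap nuclease gene Fen1 and the ligase gene Lig1 stood at 0.20 and 0.05. For nucleotide supply, Rrm2, the regulated subunit of ribonucleotide reductase, was at 416, 345 and 405 CPM in controls and 429, 442 and 429 CPM after IAA, without overlap or call (paired log2FC 0.16, edgeR adjusted p = 0.20). Without control replicate 2 the unpaired log2FC of Rrm2 was 0.08 in place of 0.16, and that of Rpa2 0.11 in place of 0.20. Rrm1, its partner, had a log2FC of -0.02 (SE 0.07, paired).

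At the moving fork, 2 of 3 genes fell in the paired fit. Wdhd1 encodes AND-1, which couples polymerase alpha to the helicase (chromosome 14, 47240944 to 47276861). It stood at 140.1, 145 and 141 CPM in controls and 109, 104 and 105 CPM in depleted libraries (paired log2FC -0.42, SE 0.08, edgeR adjusted p = 0.00510). The SD was 2.59 CPM in controls and 2.52 CPM after IAA, and the call held whichever pair was left out (edgeR adjusted p = 0.0219 to 0.0364). Tipin, the partner of TIMELESS (chromosome 9, 64281491 to 64305422), went from 131, 138 and 135 CPM to 109.7, 113 and 114 CPM (paired log2FC -0.26, SE 0.08, edgeR adjusted p = 0.0489). Its groups did not overlap, but the paired call was lost without any 1 pair (edgeR adjusted p = 0.112 to 0.171). Timeless itself, at 138, 101 and 108 CPM and 114, 87.0 and 116 CPM, was not called (paired log2FC -0.13, SE 0.09).

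Differences between gene groups within one library do not depend on how libraries were scaled. A trend of log2FC with gene length, described below, does not cancel in them. Orc1 to Orc5 span 40.3 to 63.9 kb and Mcm2 to Mcm7 span 7.5 to 28.1 kb. Rfc1 spans 76.8 kb and Pcna 3.9 kb. The differences were not recomputed with that trend removed. The mean log2 CPM of Orc1 to Orc6 minus that of Mcm2 to Mcm7 came to -0.99, -0.83 and -1.25 in the 3 controls, in order of replicate number, and to -1.43, -1.32 and -1.80 after IAA. The change within pairs was -0.44, -0.50 and -0.55, and the groups did not overlap. For the 5 loader genes minus Pcna the difference was -1.81, -1.61 and -1.97 in controls and -2.46, -2.25 and -2.55 after IAA, also without overlap. For Gmnn minus Cdt1 it was -2.74, -2.39 and -2.54 in controls and -3.02, -2.50 and -2.76 after IAA, lower in 3 of 3 pairs with overlapping groups. The level of each difference depends on transcript length and only its shift is read here. No p is given, since these genes were brought together with their results known. For the same reason the lack of overlap adds no support to the calls. Within the means, single genes went the other way. Rfc3 and Orc4 had paired log2FCs of 0.26 and 0.10, and Mcm4 and Mcm6 had -0.09 and -0.17.

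**Figure D3:**
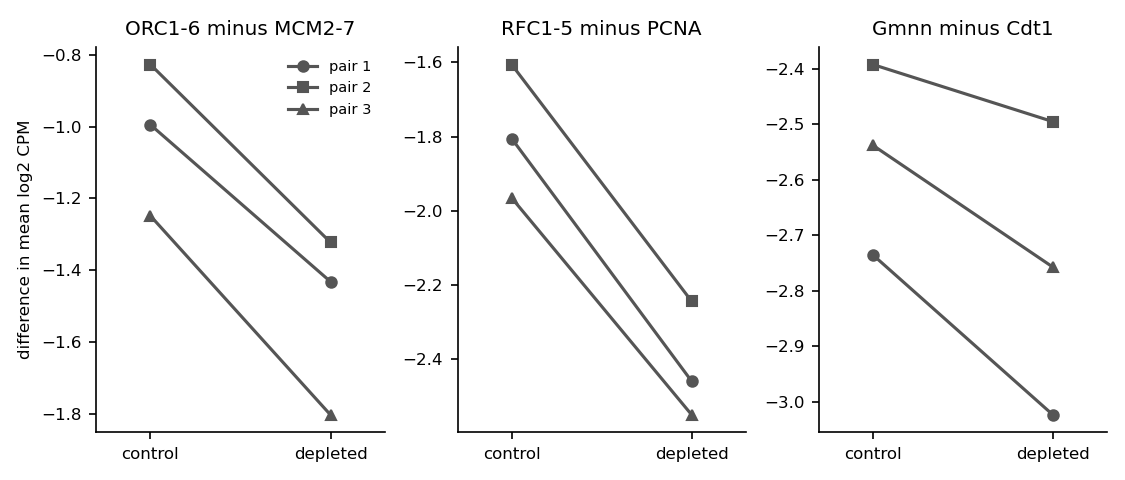
Difference in log2 CPM within each library, for the mean of Orc1 to Orc6 minus the mean of Mcm2 to Mcm7 (left), the mean of the 5 Rfc genes minus Pcna (middle) and Gmnn minus Cdt1 (right); lines join libraries of the same replicate number. All 3 lines fall in each panel, by 0.44 to 0.55 in the left panel, and groups overlap only in the right panel.

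The genes called lower had a longer median length than those called higher. The 9 genes called lower in the paired fit spanned 13.8 to 76.8 kb of genome (median 40.3 kb) and the 6 called higher 3.9 to 31.5 kb (median 11.55 kb). Long genes also lay lower among all genes, with median log2FCs of 0.14 under 10 kb, 0.04 from 10 to 30 kb, -0.07 from 30 to 100 kb and -0.12 from 100 kb. The replication genes in these classes had medians of 0.24 (12 genes), -0.07 (24 genes), -0.05 (13 genes) and 0.07 (Pola1 and Prim2). Across the 51 genes, log2FC and length had a Spearman's rho of -0.41, and across 15293 genes one of -0.24, given as a description because genes share the same 6 libraries. In the paired fit, 3 replication genes under 10 kb were called higher and 0 lower (5.91% and 2.42% of all genes of that length). From 10 to 30 kb, 2 were higher and 3 lower (7.29% and 9.31%), and from 30 to 100 kb 1 and 6 (4.48% and 13.9%). Single genes departed from the trend. Rfc4, at 13.8 kb, had a log2FC of -0.75 in a class whose median over all genes was 0.04. Cdc45, at 31.5 kb, had 0.42 where that median was -0.07. When the length trend of each library was removed by an offset, an alternative chosen after the data were seen, the paired fit called 7 of the genes lower and 8 higher (8.21% and 9.32% of the 15293 genes tested). All 6 higher genes and 7 of the 9 lower ones were among them, some at smaller values. The paired log2FC of Pcna went from 0.36 to 0.21, that of Cdt1 from 0.31 to 0.21 and that of Orc2 from -0.28 to -0.19. Orc1 and Orc2 were no longer called (edgeR adjusted p = 0.0629 and 0.116), and Mcm3 and Pola1 were called higher.

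**Figure D4:**
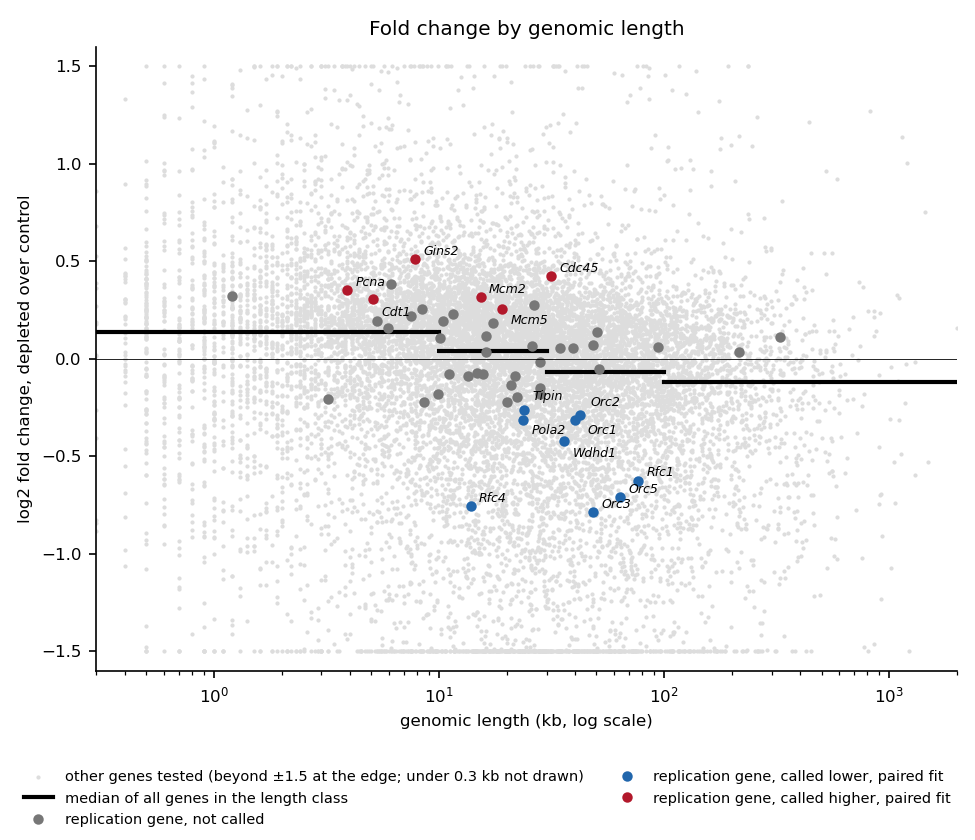
Unpaired log2FC (depleted over control) against genomic length in kb (log scale) for all genes tested with a length (light grey) and the replication genes called lower (blue, 9), called higher (red, 6) or not called (dark grey, 36) in the paired fit. Black bars are medians of all genes per length class, from 0.14 under 10 kb to -0.12 from 100 kb; Rfc4, Orc3, Orc5 and Rfc1 lie farthest below them among the replication genes.

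A second list held 44 other genes of replication, from helicase regulators to chromatin assembly, none of them among the 51. Of the 43 that passed the filter, 2 rose and 2 fell in the paired fit, no larger a share than among all genes tested (4.96% and 7.90%), and edgeR called 0 unpaired (3 at an unadjusted p under 0.05; DESeq2 without the block called 2 lower). Lrwd1, which binds ORC, rose from 50.03 ± 12.9 to 64.7 ± 9.75 CPM (mean ± SD, n = 3; paired edgeR adjusted p = 0.0408) and Recql4, a helicase of origin firing, from 48.2 ± 12.3 to 64.8 ± 16.4 CPM (paired fit, edgeR adjusted p = 0.0247). Primpol, which restarts stalled forks, fell from 36.8 ± 13.6 to 16.4 ± 0.994 CPM (paired fit, edgeR adjusted p = 0.00135), and Rrm2b, the p53-induced counterpart of Rrm2, from 15.3 ± 2.66 to 7.49 ± 1.01 CPM (paired fit, edgeR adjusted p = 0.00951). The median log2FC of this list was 0.04. In 8 of the 43 genes the depleted libraries all lay below the controls and in 1 all above, against 11.8% and 6.94% of all genes tested. Of 30 genes of G2 and M phase, set beside the replication genes as another part of the cycle, 4 rose and 2 fell in the paired fit, against 4.96% and 7.90% of all genes tested. EdgeR called 0 unpaired (1 at an unadjusted p under 0.05; 0 by DESeq2 without the block), and the median was 0.06. The higher ones were Ccnf, Plk1, Ube2c and Mki67, and the lower ones Ttk and Nusap1. Top2a stands in both lists and was not called.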

How the data were processed

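Estimated counts per gene, as deposited by the authors, were whole numbers for 55401 gene rows in 6 libraries. The submitters' processing notes name mm10, StringTie 2.2.1, HISAT2 2.2.1 and DESeq2 1.42.0 without roles. How reads of overlapping or near-identical genes were shared out is not stated. Columns were matched to samples by title. In R 4.3.3, edgeR 4.0.16 (filterByExpr by group, TMM, robust quasi-likelihood test) compared depleted with control over all genes, and DESeq2 1.42.0 was an alternative. Differences within a pair are in log2 CPM with a prior count of 2, and standard errors were taken from each log2 fold change and the square root of its F. Deviations from group means correlated at 0.268 to 0.387 between libraries of the same replicate number and at -0.265 to -0.025 otherwise. Such deviations cancel out within a group, so positive values for the same number bring negative ones elsewhere. The positive values were read as pairing, whose origin is not stated. Nothing says that replicates were separate cultures, and p-values cover only the spread among these 6 libraries, which may be technical. Coordinates and genomic lengths were matched by symbol to RefSeq GRCm38.p6 (51 of 51 genes, and 87.0% of genes tested). Full values are given for genes called in either fit, for genes whose groups do not overlap and for the 3 largest fold changes in each direction, and for others where a role is described. The genes and lists were chosen with earlier results of these data known. Other scalings, no filter on low counts, the block, single libraries or pairs left out and, added after seeing the data, removal of the length trend were alternatives. The fits were tested on simulated data with changes of 2-fold or more, larger than any among the 51 genes. How well smaller changes are found was not tested.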

Additional observations from a re-analysis of the deposited data

How the results depend on the processing

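Most counts of calls depended on the replicate block. For all genes, the unpaired edgeR fit called 137 lower and 2 higher; DESeq2 called 579 and 62, edgeR with the replicate block 1388 and 871, and DESeq2 with the block 1401 and 1137. With the length trend removed, 4 were higher unpaired, and 1255 lower and 1426 higher with the block. Leaving out 1 library gave 0 to 1 in either direction, and leaving out 1 pair under the block 927, 1016 and 699 lower and 491, 412 and 250 higher for pairs 1, 2 and 3. For the 51 replication genes, against 0 and 0 unpaired, the counts lower and higher were 2 and 0 in DESeq2, 9 and 6 with the replicate block, 8 and 7 in DESeq2 with the block, and 7 and 8 with the block and the length trend removed. Leaving out 1 pair under the block gave 4 to 6 lower and 1 to 4 higher, and leaving out 1 library unpaired gave 0, in fits that called at most 1 of all genes in either direction. For the other replication genes these settings gave, in that order, 2 and 0, 2 and 2, 2 and 3, and 2 and 5, and 1 to 2 lower and 0 to 3 higher without 1 pair. G2 and M phase genes gave 0 and 0, 2 and 4, 3 and 6, and 2 and 5, and 1 to 2 and 0 to 4. G1 to S regulators gave 1 and 1, 4 and 8, 3 and 9, and 3 and 10, and 2 to 3 and 3 to 5. Scaling by DESeq2 size factors or by the upper quartile, and no filter on low counts, left the 51 genes at 0 calls. The log2 fold change was recomputed by setting for the 20 genes that were called, did not overlap between groups or were among the 3 largest in a direction, and kept its sign in each; other genes described were not rerun this way. With 3 libraries a group, changes of the sizes seen here can be missed.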

Other observations

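Genes that govern entry into S phase were also read from the same fits. Of 32 such regulators, 8 rose and 4 fell in the paired edgeR fit, against 4.96% and 7.90% of all genes tested. The unpaired edgeR fit called 0 (9 at an unadjusted p under 0.05, against 10.9% of all genes), and DESeq2 without the block called 1 higher and 1 lower (0.353% and 3.29% of all genes). The list was chosen with earlier results known, and nothing particular to it is read from these counts. All 3 genes of the retinoblastoma family, whose proteins hold E2F factors back, fell in the paired fit. Rbl2 stood at 93.2, 94.8 and 91.9 CPM in controls and 62.3, 63.4 and 51.5 CPM after IAA (paired log2 fold change (log2FC) -0.66, SE 0.10, edgeR adjusted p = 8.52e-04), without overlap. Rbl1 went from 43.8 ± 9.79 to 27.8 ± 2.02 CPM (paired fit, edgeR adjusted p = 0.00787) and Rb1 from 21.0 ± 8.21 to 12.7 ± 1.53 CPM (paired fit, edgeR adjusted p = 0.0406; mean ± SD, n = 3). By replicate, Rb1 stood at 14.4, 30.2 and 18.4 CPM in controls and 12.4, 14.3 and 11.3 CPM after IAA. Its control mean was raised by replicate 2. Under the block, the whole list had 2 to 3 lower calls with 1 pair left out and 3 with the length trend removed. Values of single regulators in those settings are not given here. Tfdp2, a dimer partner of E2F proteins, fell as well, while Tfdp1, another such partner, was not called (paired log2FC 0.12).

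Among the E2F genes, E2f2, E2f3, E2f4 and E2f6 rose in the paired fit. E2f1, E2f5, E2f7 and E2f8 were not called and had paired log2FCs of -0.29, -0.10, -0.04 and -0.25. E2f3 was at 139, 139 and 146 CPM in controls and 183, 190.4 and 183 CPM after IAA, without overlap. Its paired log2FC was 0.40 (SE 0.08, edgeR adjusted p = 0.00543). Ccnd1, Cdk2, Cdkn1a and Myc made up the remaining higher genes. The 3 genes of the retinoblastoma family span 53.8 to 133.1 kb and Tfdp2, also called lower, spans 127.4 kb. Among the higher genes, E2f3 spans 79.5 kb and the others span 5 kb (Myc) to 23.8 kb (E2f2).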
